A study of Homo sapiens with 12 samples.

Results

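Messenger RNA of 9 genes of nonsense-mediated decay, UPF1, UPF2, UPF3A, UPF3B, SMG1, SMG5, SMG6, SMG8 and SMG9, was followed while a transcription elongation factor was removed from human cells. The 9 were picked out of 60666 human gene rows by name, with no threshold on a measured value. All 9 were among the 20791 genes with enough counts to be tested. Read counts per gene came from poly(A)-selected RNA of DLD-1 cells, a colorectal adenocarcinoma line that in every group constitutively expressed OsTIR1, the plant receptor that marks degron-tagged proteins for destruction when auxin is present. The genotype was SPT6-AID OsTIR1 or PAF1-AID OsTIR1, in which the auxin-inducible degron (AID) sits on SPT6, which handles histones beside the transcribing polymerase, or on PAF1, part of a complex of the same name that acts in elongation. Each line was taken after 0, 2 or 6 h in 500 µM auxin, with 2 libraries a group and 12 in all. The labels do not say whether the libraries of a group were separate cultures, nor how many clones each line holds, so a p-value here reflects the scatter of libraries alone, and that scatter may be technical. Cells with no tagged protein were not among the groups, so each change from 0 h combines loss of the protein with any effect of auxin.

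Nonsense-mediated decay (NMD) destroys mRNAs on which a ribosome stops too early, and also trims many normal transcripts. UPF1, an RNA helicase, gathers on such mRNAs, and UPF2 and UPF3B (or its relative UPF3A) link it to the exon junction complex, a protein mark left where introns were spliced out. The kinase SMG1, held in check by its partners SMG8 and SMG9, phosphorylates UPF1, and phosphorylated UPF1 recruits SMG6, which cuts the mRNA, and SMG5, which helps to bring in decay enzymes. The mRNAs of several NMD factors are themselves targets of the pathway.

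At 6 h without SPT6, UPF2, SMG1, SMG9 and SMG6 fell to between 30.2% and 58.3% of their starting level, and no member rose. At 6 h without PAF1, SMG9 fell to 19.5% of its starting level while SMG8, its partner in the SMG1 complex, stood at 158% of its own. This rise of SMG8 did not pass when libraries were scaled by their fly gene counts (log2 fold change 0.27). At 2 h no member had passed the test in either line, where 0.548% (SPT6-AID) and 0.149% (PAF1-AID) of all genes tested passed. The shares at 6 h were 25.2% and 10.9%. In every comparison the test was edgeR's quasi-likelihood test with p-values adjusted by Benjamini-Hochberg over all 20791 genes, a gene passed at an adjusted p below 0.05, and levels are in CPM (counts scaled to a common library size) after scaling by TMM, edgeR's trimmed mean of ratios between libraries.

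Sequence upstream of the start is shown for the 4 genes that fell together in SPT6-AID cells. The stretches come from RefSeq promoters on GRCh38.p14, cut back so that they lie before the RefSeq start and outside the GENCODE 29 gene, and all 4 genes are on the minus strand. They are chr19:43754991-43755212 for SMG9, chr17:2303786-2304035 for SMG6, chr10:12043171-12043420 for UPF2 and chr16:18926455-18926658 for SMG1. Each runs 5′ to 3′ towards the gene, and capitals mark GGGCGG or its reverse complement CCGCCC, the core of the GC box.
SMG9: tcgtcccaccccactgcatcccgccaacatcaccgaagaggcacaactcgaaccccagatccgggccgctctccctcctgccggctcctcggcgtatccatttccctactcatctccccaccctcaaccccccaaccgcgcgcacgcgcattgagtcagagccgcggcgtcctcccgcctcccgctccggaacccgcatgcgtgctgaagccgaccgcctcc
SMG6: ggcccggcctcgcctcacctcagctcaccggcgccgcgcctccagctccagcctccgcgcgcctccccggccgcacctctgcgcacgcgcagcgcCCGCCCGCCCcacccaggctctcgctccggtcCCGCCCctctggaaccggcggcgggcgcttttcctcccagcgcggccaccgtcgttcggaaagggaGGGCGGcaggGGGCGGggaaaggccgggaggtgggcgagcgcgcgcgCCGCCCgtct
UPF2: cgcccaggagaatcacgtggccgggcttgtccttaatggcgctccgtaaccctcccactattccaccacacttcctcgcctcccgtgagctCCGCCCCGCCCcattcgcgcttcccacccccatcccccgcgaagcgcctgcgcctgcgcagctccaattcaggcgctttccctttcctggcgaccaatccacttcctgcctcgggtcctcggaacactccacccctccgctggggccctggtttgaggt
SMG1: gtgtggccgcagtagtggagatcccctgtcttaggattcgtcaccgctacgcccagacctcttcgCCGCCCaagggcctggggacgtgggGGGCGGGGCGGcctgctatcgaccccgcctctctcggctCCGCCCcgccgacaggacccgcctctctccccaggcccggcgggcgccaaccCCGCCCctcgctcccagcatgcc
The stretch before SMG9, the member that fell in both lines, holds no such match, against 6 for SMG6, 5 for SMG1 and 2 for UPF2. That before SMG5, not shown, holds none either, and SMG5 did not pass by edgeR at 6 h in either line. RefSeq entries were matched for 8 of the 9 members. Over full windows of 250 bases, 6 of those 8 members held GGGCGG on either strand, against 42.6% of 35116 promoters of that length. CCAAT was in 4 of 8 (32.0% of all promoters), CCGGAAG in 1 of 8 (8.52%), and TATAAA and GCATGCGC in 0 of 8 (10.7% and 2.63%), each read on both strands, and no motif's letters lie within another's. The members' windows had a GC content of 55.6% to 79.6%, where the median over all promoters was 58.0%. The motifs were chosen after the sequences were seen, and a match is a string of letters, not a shown binding site.

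The shallowest library, SPT6-AID 6h replicate 2, held 31957953 counts and the deepest, SPT6-AID 2h replicate 2, 115904780. Fly rows, whose purpose is not given in the labels, made up 1661945 to 5564723 of a library's counts. Of 14 colorectal epithelial markers, 10 were at 1 CPM or more in every library, CDX1 was at 0 throughout, and LGALS4, VIL1 and CEACAM5 were below 1 CPM. The summed level of 4 blood cell markers went from 0.321 to 0.654 CPM at 0 h to 1.64 to 1.89 CPM at 6 h in SPT6-AID cells, and from 0.482 to 0.571 CPM to 1.06 to 1.09 CPM in PAF1-AID cells, with CD3E at most 0.0241 CPM. That of 6 fibroblast and endothelium markers was 1.48 to 3.95 CPM over all libraries, with COL1A2 at 0. Within these lists PECAM1 passed as higher in SPT6-AID cells at 6 h, at 0.456 to 1.22 CPM against 0 to 0.0357 CPM at 0 h, as did CD14 (1.76, log2), CD79A (1.57) and the epithelial LGALS4 (1.27). In PAF1-AID cells at 6 h the epithelial LGALS4 (2.18), CDX2 (0.75) and CLDN4 (0.65) passed as higher. Their part in the results was not tested. The degron acts on protein, so mRNA of a tagged gene is no test of its depletion. SUPT6H (the SPT6 gene) changed by 0.15 (log2) at 6 h in SPT6-AID cells and PAF1 by -0.14 in PAF1-AID cells, and neither passed. In PAF1-AID cells SUPT6H passed as higher at 6 h (0.42, edgeR adjusted p = 0.0329). Mean levels at 0 h in SPT6-AID and PAF1-AID cells were 498 and 274 CPM for SUPT6H, and 72.7 and 128 CPM for PAF1. With fly totals in place of TMM, the median log2 fold change over all genes tested moved from 0.04 to -0.39 in SPT6-AID cells and from 0.02 to -0.37 in PAF1-AID cells at 6 h. The split of genes higher and lower moved with it, from 1821 and 3409 to 958 and 5842 in SPT6-AID cells and from 873 and 1394 to 296 and 2865 in PAF1-AID cells.

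Before auxin the 9 mRNAs spanned a 7.38-fold range in SPT6-AID cells and a 7.59-fold range in PAF1-AID cells, as CPM per kilobase of the deposited transcript length. In SPT6-AID cells SMG5 (28.6 ± 0.624 CPM per kb, SD, n = 2), UPF1 (25.4 ± 2.45) and UPF3B (22.8 ± 3.38) were highest. UPF2 (13.01 ± 1.23), SMG1 (10.4 ± 0.943), SMG8 (7.88 ± 0.184) and UPF3A (6.49 ± 0.320) followed, and SMG9 (5.17 ± 1.53) and SMG6 (3.87 ± 0.243) were lowest. The libraries of UPF1 and UPF3B overlapped, and no other neighbours in this order did. In PAF1-AID cells UPF3B (26.7 ± 2.30), SMG5 (24.6 ± 1.57) and UPF1 (24.1 ± 3.13) overlapped in turn, and the order from UPF2 (12.9 ± 0.482) down to SMG6 (3.51 ± 0.570) was the same 6 genes in the same places. The mRNA of the scaffold UPF1 and of the effector SMG5 was thus several times that of the endonuclease SMG6 per length. The deposited length is close to the union of all annotated exons, and the principal transcript of a member covers 41.5% (UPF3A) to 94.7% (UPF2) of it, so levels of genes with long unused exons are understated.

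**Figure D1:**
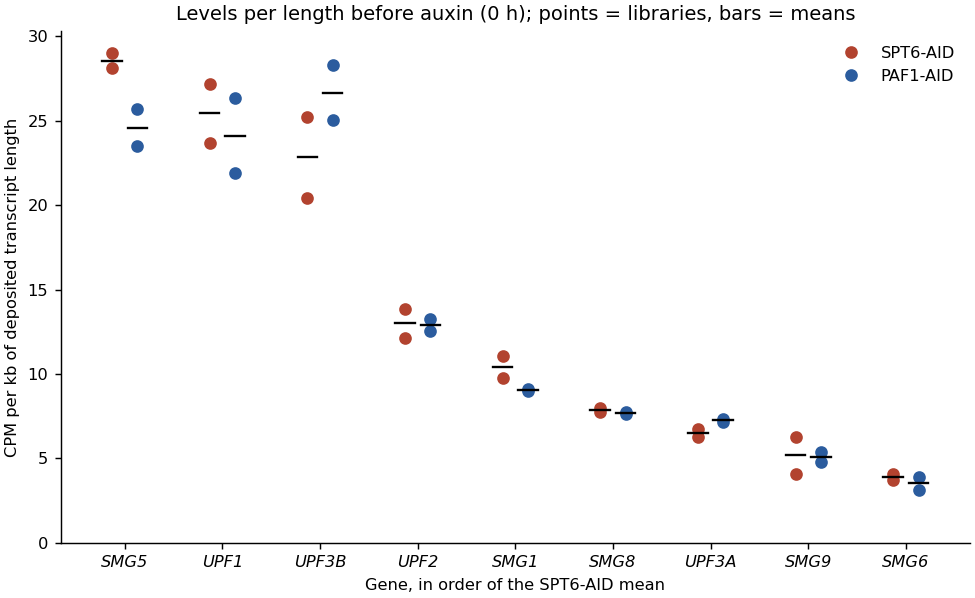
Level of each NMD factor mRNA before auxin, in CPM per kilobase of deposited transcript length, with 1 point per library and a bar at the mean of 2 libraries. SMG5, UPF1 and UPF3B stood above 20 CPM per kb in all libraries, and SMG9 and SMG6 were the lowest in both lines.

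None of the 9 genes differed between the lines at 0 h, where 0.0337% of all genes tested passed. The log2 differences, PAF1-AID against SPT6-AID, ran from -0.22 (SMG5, SE 0.21) to 0.22 (UPF3B, SE 0.25). No member had an unadjusted p under 0.05 and none passed by DESeq2's Wald test.

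UPF1 (ENSG00000005007, GRCh38 chromosome 19, 18831938 to 18868236), the helicase at the centre of the pathway, was at 233 and 203 CPM before auxin in SPT6-AID cells, 222 and 189.6 at 2 h, and 197 and 122 at 6 h. Both 6 h libraries lay below both 0 h libraries, but they stood far apart from each other. Its log2 fold change at 6 h of -0.45 ± 0.21 (SE) did not pass (edgeR adjusted p = 0.148). When scaled by fly totals, UPF1 changed by -0.85 there and passed (edgeR adjusted p = 0.0404). In PAF1-AID cells it was at 188 and 226 CPM at 0 h, 185 and 216 at 2 h and 213 and 240.2 at 6 h, with overlapping groups and a log2 fold change of 0.13 ± 0.21 at 6 h (-0.24 when scaled by fly totals).

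UPF2 (ENSG00000151461, chromosome 10, 11920022 to 12043170), which ties UPF1 to UPF3 proteins, was at 71.4 and 81.6 CPM before auxin in SPT6-AID cells, 64.5 and 67.1 at 2 h, and 45.5 and 35.9 at 6 h. The groups did not overlap and came in the order of time. UPF2 fell by 0.91 ± 0.15 on the log2 scale at 6 h (edgeR adjusted p = 0.00161), to 53.2% of its level at 0 h. It was 1 of 4 members that passed there, all lower, where 25.2% of all genes tested passed, 8.76% as higher and 16.4% as lower. In PAF1-AID cells UPF2 was at 77.9 and 73.9 CPM at 0 h, 60.9 and 68.3 at 2 h, and 70.4 and 82.9 at 6 h, so that the 6 h libraries enclosed those of 0 h. The log2 fold change there was 0.01 ± 0.15 (-0.37 when scaled by fly totals), and it did not pass.

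UPF3B (ENSG00000125351, chromosome X, 119805311 to 119852998), the main bridge to the exon junction complex, was at 77.7 and 63.0 CPM before auxin in SPT6-AID cells, 77.8 and 54.7 at 2 h, and 60.4 and 33.2 at 6 h. The 6 h libraries lay below those of 0 h, and replicate 2 was the lower one at each time. Its change of -0.59 ± 0.25 (log2) did not pass (edgeR adjusted p = 0.123). In PAF1-AID cells the values were 87.2 and 77.1 CPM at 0 h, 71.9 and 69.7 at 2 h, and 63.3 and 65.3 at 6 h. These groups did not overlap, and the change of -0.35 ± 0.25 did not pass.

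UPF3A (ENSG00000169062, chromosome 13, 114281584 to 114305817), the weaker relative of UPF3B, was at 38.7 and 36.1 CPM before auxin in SPT6-AID cells, 41.1 and 37.3 at 2 h, and 42.5 and 44.0 at 6 h. It was the one member above its 0 h level at 6 h in this line, by 0.21 ± 0.12 (log2), which did not pass and was -0.23 when scaled by fly totals. In PAF1-AID cells it was at 41.3 and 42.1 CPM at 0 h, 39.5 and 41.6 at 2 h, and 36.5 and 38.6 at 6 h, a change of -0.15 ± 0.12 that did not pass either. UPF3B stood at 3.75 and 3.26 times UPF3A per kilobase in SPT6-AID libraries of 0 h, against 2.65 and 1.41 times at 6 h. The 3 annotated copies of UPF3A, UPF3AP1 to UPF3AP3, held, summed, 29.1% to 36.4% as many counts as UPF3A, none of them passed in any comparison of 6 h with 0 h, and reads that match both are uncertain.

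**Figure D2:**
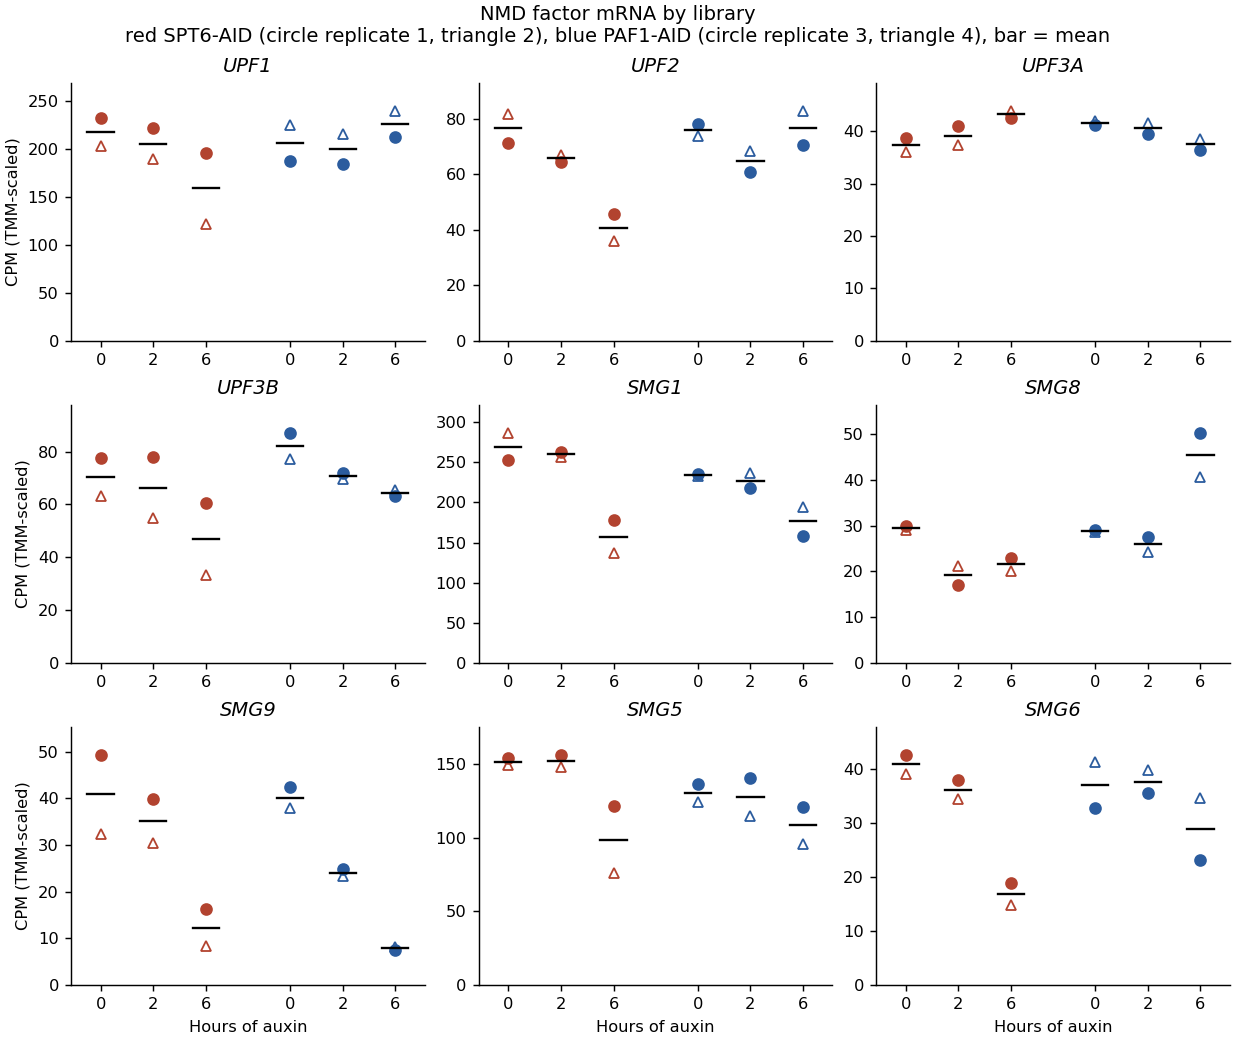
Level of each of the 9 mRNAs in every library, in CPM after TMM scaling, by hours of auxin and by line, with a bar at the mean of each 2 libraries. SMG9 drops in both lines, to 7.46 and 8.19 CPM in PAF1-AID cells at 6 h, SMG8 is above its 0 h level only in PAF1-AID cells at 6 h, and UPF2 and SMG6 are lowest in SPT6-AID cells at 6 h.

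SMG1 (ENSG00000157106, chromosome 16, 18804853 to 18926454), the kinase that phosphorylates UPF1, was at 253 and 287 CPM before auxin in SPT6-AID cells, 263 and 257 at 2 h, and 178 and 136 at 6 h. The levels at 2 h lay within those at 0 h, and both 6 h libraries were well below. SMG1 fell by 0.78 ± 0.15 (log2) at 6 h (edgeR adjusted p = 0.00446), to 58.3% of its start. In PAF1-AID cells it was at 236 and 233 CPM at 0 h, 218 and 237 at 2 h, and 158 and 195 at 6 h, a change of -0.41 ± 0.15 that did not pass (adjusted p = 0.121, and 0.0405 when scaled by fly totals). There are 7 annotated copies, SMG1P1 to SMG1P7, and reads that match both cannot be placed with certainty. Their summed counts were 28.4% and 28.7% of those of SMG1 at 0 h and 34.1% and 34.0% at 6 h in SPT6-AID cells, and 30.9% and 31.2% at 0 h and 42.2% and 40.7% at 6 h in PAF1-AID cells. SMG1P3 (-0.80) and SMG1P4 (-0.74) fell with SMG1 in SPT6-AID cells at 6 h, and the other 5 did not pass.

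SMG8 (ENSG00000167447, chromosome 17, 59209400 to 59215247), a regulator of the SMG1 kinase, was at 30.0 and 29.002 CPM before auxin in SPT6-AID cells, 17.0 and 21.2 at 2 h, and 22.9 and 20.2 at 6 h. All 4 auxin-treated libraries lay below both 0 h libraries, with 2 h and 6 h overlapping. The log2 fold change of -0.63 ± 0.16 at 2 h did not pass by edgeR (adjusted p = 0.155) but passed by DESeq2's Wald test (adjusted p = 0.0235). That at 6 h was -0.45 ± 0.16 (edgeR adjusted p = 0.0657). When scaled by fly totals, the change at 6 h was -0.88 and passed (edgeR adjusted p = 0.0105). No member passed at 2 h in this line, where 0.548% of all genes tested passed. SMG8 was the 1 member of 9 with an unadjusted p under 0.05, as had 7.42% of all genes tested.

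In PAF1-AID cells SMG8 was at 28.96 and 28.6 CPM at 0 h, 27.5 and 24.3 at 2 h, and 50.3 and 40.7 at 6 h. Both 6 h libraries lay above all other libraries of either line. SMG8 rose by 0.66 ± 0.16 (log2) at 6 h (edgeR adjusted p = 0.0278), and was 1 of 2 members that passed there, where 10.9% of all genes tested passed, 4.2% as higher and 6.7% as lower. The call was lost without PAF1-AID 0h replicate 3 (log2 fold change 0.67, adjusted p = 0.121), 0h replicate 4 (0.66, 0.116) or 6h replicate 3 (0.51, 0.215), and when scaled by fly totals (0.27, 0.420). Of the exon bases of SMG8, 422 are shared with AC099850.2, an annotated gene on the same strand that had 0 counts in all libraries.

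SMG9 (ENSG00000105771, chromosome 19, 43727992 to 43754990), which pairs with SMG8 on the kinase, was at 42.4 and 37.9 CPM before auxin in PAF1-AID cells, 24.8 and 23.3 at 2 h, and 7.46 and 8.19 at 6 h. The 3 times did not overlap and each step was downward in both libraries. SMG9 fell by 2.36 ± 0.30 (log2) at 6 h (edgeR adjusted p = 0.00219), to 19.5% of its start, and 0.293% of all genes tested had a lower log2 fold change. At 2 h its change of -0.74 ± 0.29 did not pass (adjusted p = 0.563). No member passed at 2 h in this line, where 0.149% of all genes tested passed, and none passed by DESeq2. SMG9 was the 1 member of 9 with an unadjusted p under 0.05, as had 7.39% of all genes tested.

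In SPT6-AID cells SMG9 was at 49.4 and 32.3 CPM at 0 h, 39.9 and 30.4 at 2 h, and 16.2 and 8.35 at 6 h. The libraries of 0 h and 2 h overlapped, and those of 6 h lay below all of them. SMG9 fell by 1.73 ± 0.30 (log2) at 6 h (edgeR adjusted p = 0.00212), to 30.2% of its start, the largest fall among the 9 in this line too. The difference between the falls in the 2 lines, 0.63 ± 0.41, did not pass.

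Per kilobase, SMG8 stood at 1.28 and 1.89 times SMG9 at 0 h in SPT6-AID cells and at 2.98 and 5.10 times at 6 h. In PAF1-AID cells the ratio was 1.44 and 1.59 at 0 h, 2.34 and 2.20 at 2 h, and 14.2 and 10.5 at 6 h. Per deposited length, the mRNAs of these partner proteins, close to each other before auxin, were thus about an order of magnitude apart in the PAF1-AID libraries of 6 h. The principal transcript covers 92.9% of that length for SMG8 and 69.7% for SMG9. If the other exons are unused, these ratios are overstated.

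**Figure D3:**
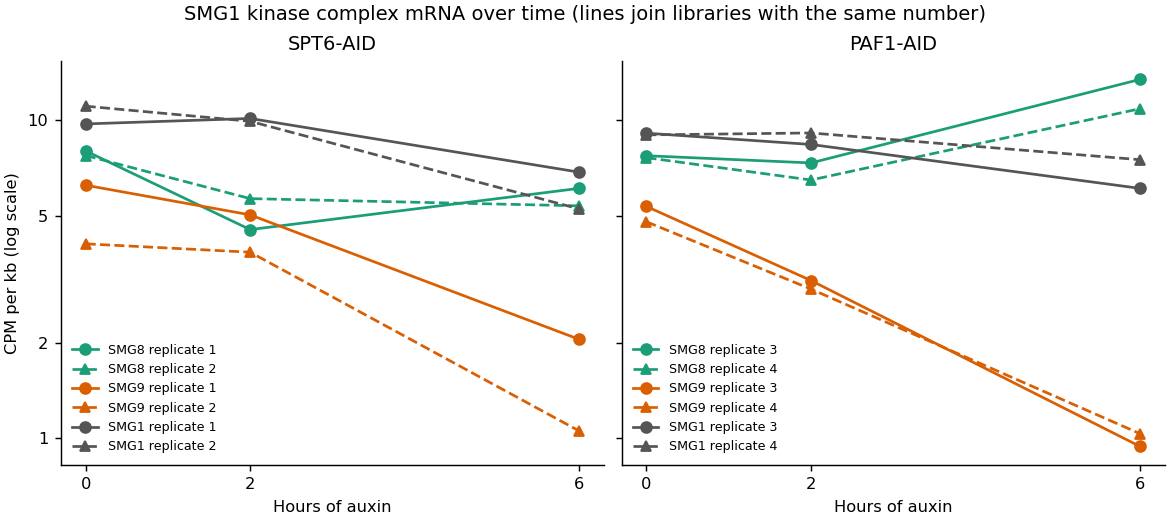
SMG1, SMG8 and SMG9 mRNA in CPM per kilobase (log axis) at 0, 2 and 6 h of auxin, 1 panel a line, with 1 point a library. Lines join libraries that carry the same number, which the labels do not define further; SMG9 ends lowest in both panels and SMG8 ends highest in the PAF1-AID panel.

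SMG6 (ENSG00000070366, chromosome 17, 2059839 to 2303771), the endonuclease of the pathway, was at 42.7 and 39.1 CPM before auxin in SPT6-AID cells, 38.1 and 34.4 at 2 h, and 19.0 and 14.8 at 6 h. The 3 times did not overlap. SMG6 fell by 1.27 ± 0.21 (log2) at 6 h (edgeR adjusted p = 0.00178), to 41.4% of its start. In PAF1-AID cells it was at 32.9 and 41.4 CPM at 0 h, 35.6 and 39.9 at 2 h, and 23.2 and 34.7 at 6 h, with overlap between 0 h and 6 h and a change of -0.36 ± 0.21 that did not pass. SMG6 shares 2419 exon bases with HIC1 on the opposite strand, 22.9% of its own, and the strand setting of the counting is not given. HIC1 itself held 95 to 414 counts a library.

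SMG5 (ENSG00000198952, chromosome 1, 156249224 to 156282825), the adaptor that brings in decay enzymes, was at 154 and 149 CPM before auxin in SPT6-AID cells, 156 and 148 at 2 h, and 121 and 75.6 at 6 h. Both 6 h libraries were below the others, and far from each other. Its change of -0.62 ± 0.21 (log2) missed the threshold (edgeR adjusted p = 0.0503) and passed by DESeq2's Wald test (adjusted p = 0.0464). When scaled by fly totals, SMG5 changed by -1.01 and passed (edgeR adjusted p = 0.0205). In PAF1-AID cells it was at 136 and 125 CPM at 0 h, 141 and 115 at 2 h, and 121 and 95.8 at 6 h, a change of -0.27 ± 0.21 that did not pass. SMG5 per kilobase was 7.17 and 7.60 times SMG6 in SPT6-AID cells at 0 h and 12.7 and 10.2 times at 6 h. In PAF1-AID cells the ratio went from 8.26 to 10.4 in the libraries numbered 3 and from 6.00 to 5.49 in those numbered 4.

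Among the 9 in SPT6-AID cells at 6 h, replicate 2, the shallowest library, was lower than replicate 1 for 8 members, at 0.515 to 1.03 times its level, and it was lower for 7 of 9 at 0 h and at 2 h as well. Without it UPF2 (-0.75), SMG1 (-0.60), SMG9 (-1.33) and SMG6 (-1.10) still passed by edgeR, with adjusted p of 0.0163, 0.0396, 0.0125 and 0.0209. Without replicate 1 of that group, UPF1 (-0.80), UPF3B (-1.05) and SMG5 (-0.97) passed as well, making 7 members. The same 4 members passed in each of the other settings tried for this comparison. In SPT6-AID cells at 6 h, 7 of the 9 had an unadjusted p under 0.05, as had 36.3% of all genes tested. The median log2 fold change of the 9 was -0.62, where that of all genes tested was 0.04. In PAF1-AID cells the members' median was -0.27, beside 0.02 for all genes tested, and 3 of 9 had an unadjusted p under 0.05, as had 25.5% of all genes tested. Each level is relative to the other human counts of its library and does not give the amount of RNA in a cell. Bulk RNA cannot tell a change in all cells from a larger change in some.

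**Figure D4:**
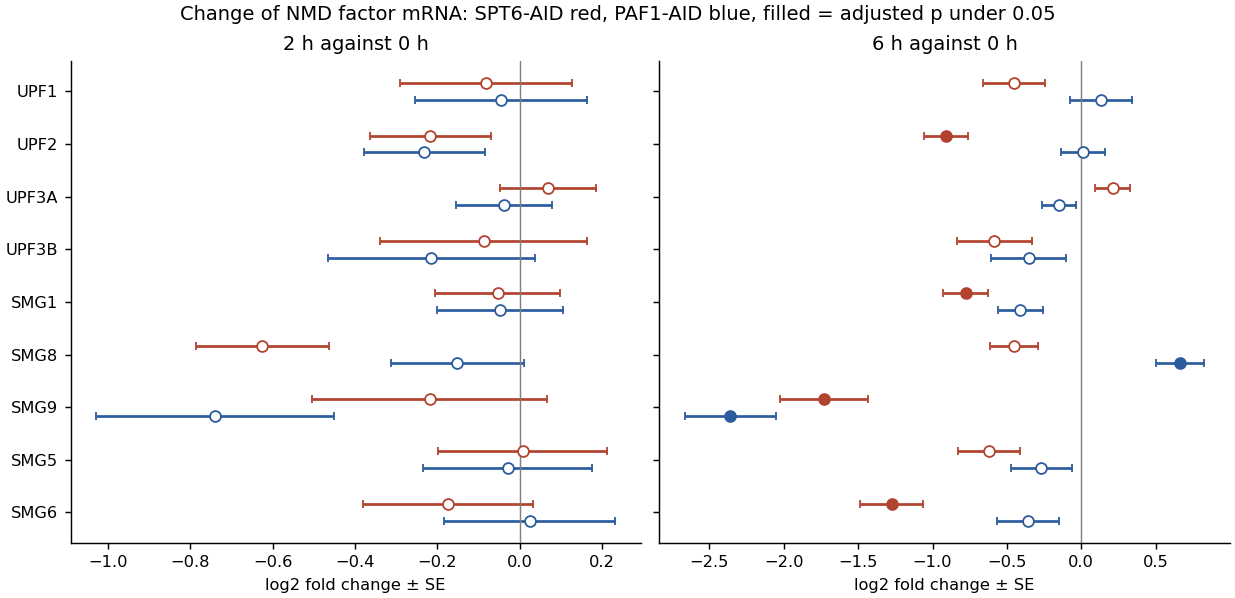
Log2 fold change (± SE, from 2 libraries a group) of the 9 mRNAs at 2 h and 6 h against 0 h, in SPT6-AID (red) and PAF1-AID (blue) cells, with filled points for an adjusted p under 0.05. No point is filled at 2 h; at 6 h UPF2, SMG1, SMG9 and SMG6 are filled below 0 in SPT6-AID cells, and SMG9 below and SMG8 above 0 in PAF1-AID cells.

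The lines were then compared in their responses, as the log2 fold change in SPT6-AID cells minus that in PAF1-AID cells. At 6 h UPF2 (-0.92 ± 0.21, edgeR adjusted p = 0.0397) and SMG8 (-1.12 ± 0.23, adjusted p = 0.0289) differed, 2 of 9 members where 3.74% of all genes tested passed. UPF2 was lower than at 0 h in both SPT6-AID libraries and on either side of it in PAF1-AID cells, whereas SMG8 was below both 0 h libraries in SPT6-AID cells and above both in PAF1-AID cells. Both calls were fragile. Each was lost in most of the 12 fits that left out a library. In most of those fits fewer of all genes tested passed as well. The differences stayed at -1.07 to -0.76 for UPF2 and -1.23 to -0.95 for SMG8. The difference of SMG6 (-0.92 ± 0.29, adjusted p = 0.130) did not pass. At 2 h no member differed between the lines, none had an unadjusted p under 0.05 or passed by DESeq2, and 0.0337% of all genes tested passed.

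Between 2 h and 6 h, SMG9 (-1.51 ± 0.30), SMG6 (-1.10 ± 0.21), SMG1 (-0.72 ± 0.15) and UPF2 (-0.69 ± 0.15) fell in SPT6-AID cells, 4 of 9 members where 15.7% of all genes tested passed, 10.4% as lower, with adjusted p of 0.00779, 0.00721, 0.0109 and 0.0114 by edgeR. The count was 1 without 6h replicate 2, 2 without 2h replicate 2 and 7 without 6h replicate 1. In PAF1-AID cells SMG9 fell (-1.62 ± 0.30, adjusted p = 0.0412), 1 of 9 where 0.875% of all genes tested passed, 0.587% as lower, and SMG8 (0.81 ± 0.16, adjusted p = 0.0511) stayed short of the threshold. Over the 12 fits that left out a library, SMG9 stayed at -1.55 to -1.70 (log2). Its call was lost in most of them, as were most calls over all genes tested. These comparisons share their libraries with those against 0 h.

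The partners of the 9 were described by lists that hold no member. At 6 h, 25.2% of all genes tested passed in SPT6-AID cells, 16.4% as lower and 8.76% as higher. In PAF1-AID cells 10.9% passed, 6.7% as lower and 4.2% as higher. Of 10 exon junction complex genes, 5 fell and 1 rose in SPT6-AID cells at 6 h, with a median log2 fold change of -0.26. PYM1, which recycles the complex (-1.59 ± 0.24), its core subunit CASC3 (-1.19 ± 0.13), RNPS1 (-0.68 ± 0.15) and ACIN1 (-0.49 ± 0.12) were among those that fell, and the core helicase EIF4A3 rose (0.45 ± 0.14, but not when scaled by fly totals). Without replicate 2 of 6 h only CASC3 and PYM1 passed. In PAF1-AID cells 2 of 10 rose, EIF4A3 (1.18 ± 0.14) and SAP18 (0.65 ± 0.13, but not when scaled by fly totals), and 2 fell, PYM1 (-1.03 ± 0.23) and ACIN1 (-0.49 ± 0.12), of which only EIF4A3 passed without replicate 3 of 6 h.

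Of 15 other NMD and termination factors, 4 fell and none rose in SPT6-AID cells at 6 h, with a median of -0.11. These 4 of 15 stand beside 25.2% of all genes tested that passed there, 16.4% as lower. Among them were the NMD helicase DHX34 (-0.90 ± 0.14), ICE1 (-0.87 ± 0.19) and the decapping adaptor PNRC2 (-0.48 ± 0.12), and PNRC2, which did not pass without replicate 1 of 6 h, had already fallen at 2 h (-0.68). In PAF1-AID cells NBAS rose (0.50 ± 0.14, but not when scaled by fly totals) and DHX34 (-0.64 ± 0.14) and PNRC2 (-0.55 ± 0.12) fell, with a median of 0.02, and none of these 3 passed without replicate 3 of 6 h. The PAF1-AID count was 3 of 15, where 10.9% of all genes tested passed. The release factors ETF1 and GSPT1, which end translation, did not pass in either line at 6 h.

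SMG1 belongs to a family of large kinases that the TELO2 and TTI proteins help to assemble. Of 10 genes of this family and its assembly factors, TTI1 (-0.90 ± 0.16), TTI2 (-0.69 ± 0.19) and the family gene TRRAP (-0.47 ± 0.14) fell in SPT6-AID cells at 6 h. In PAF1-AID cells 0 of 10 passed. Over all genes tested, 25.2% passed in SPT6-AID cells (16.4% as lower) and 10.9% in PAF1-AID cells. The kinases ATM, ATR, MTOR and PRKDC passed in neither line. TRRAP did not pass without replicate 2 of 6 h, and TTI2 did not without replicate 1.

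Of 16 mRNA decay enzymes and cofactors that act after NMD marks an mRNA, 7 fell and 1 rose in SPT6-AID cells at 6 h, with a median of -0.46. There 16.4% of all genes tested passed as lower and 8.76% as higher. The decapping subunit DCP1B (-2.11 ± 0.29), its relative DCP1A (-0.93 ± 0.22), the deadenylase complex subunit CNOT2 (-1.28 ± 0.18) and the helicase DDX6 (-0.71 ± 0.15) fell, and the decapping enhancer EDC3 rose (0.87 ± 0.19). In PAF1-AID cells EDC3 (0.91 ± 0.19) and EDC4 (0.52 ± 0.12) rose and CNOT3 fell (-0.95 ± 0.13), with a median of -0.04. Neither rise passed without either 6 h library of that line or when scaled by fly totals, nor did that of EDC3 in SPT6-AID cells under that scaling. DCP1B was at -0.03 in PAF1-AID cells. Over all genes tested in that line at 6 h, 4.2% passed as higher and 6.7% as lower.

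Of 22 transcripts known as NMD targets, 8 fell and 2 rose in SPT6-AID cells at 6 h, with a median of -0.27, and 4 fell and 2 rose in PAF1-AID cells, with a median of -0.20. Over all genes tested, 25.2% passed in SPT6-AID cells (16.4% as lower) and 10.9% in PAF1-AID cells (6.7% as lower). The stress-response regulators DDIT3 (-2.45 ± 0.28) and ATF4 (-1.67 ± 0.24), the snoRNA host SNHG15 (-1.32 ± 0.19) and the splicing factor SRSF6 (-0.91 ± 0.13) fell in SPT6-AID cells, and GADD45B (2.49 ± 0.16) and CDKN1A, which encodes the cell cycle inhibitor p21 (1.78 ± 0.22), rose. In PAF1-AID cells DDIT3 (-2.13 ± 0.27), ATF4 (-1.55 ± 0.24), SRSF3 (-0.91 ± 0.15) and SNHG15 (-0.71 ± 0.19) fell, and GADD45B (1.48 ± 0.16) and CDKN1A (1.06 ± 0.22, but not when scaled by fly totals) rose. DDIT3 had fallen at 2 h in both lines (-1.83 and -1.84), while the members did not pass there. Without replicate 3 of 6 h, 3 of the 6 targets passed in PAF1-AID cells. Counts per gene pool the isoforms that NMD destroys with those it spares, so NMD activity itself was not measured.

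**Figure D5:**
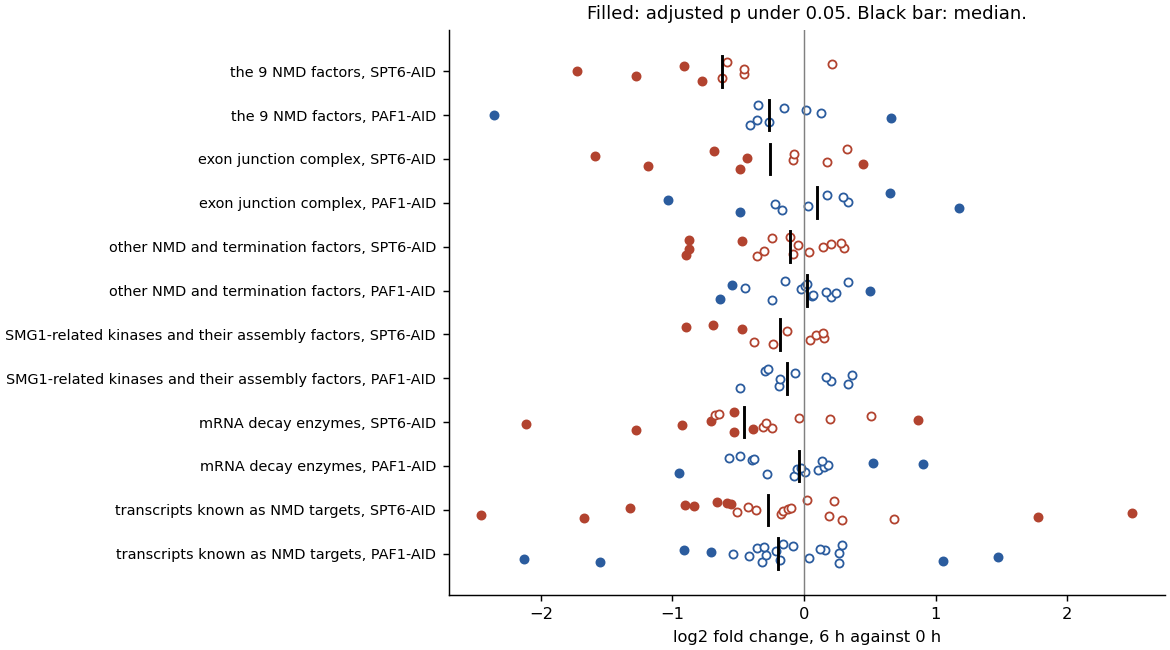
Log2 fold change at 6 h against 0 h of the 9 NMD factors and of the genes of 5 pathway lists, in SPT6-AID (red) and PAF1-AID (blue) cells; each point is a gene, filled where the adjusted p was under 0.05, and black bars are medians. The median of the 9 factors lay at -0.62 in SPT6-AID cells and -0.27 in PAF1-AID cells.

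The genes whose levels over the 12 libraries were most like those of each called member were listed as a description, from Pearson correlations of log2 CPM over libraries that share lines and times. For SMG9 they were PRDM10 (r = 0.996), RBM23 (0.989) and WDR44 (0.987), and for SMG6 they were CPTP (0.983), USP8 (0.981) and AC124068.1 (0.981). UPF2 was most like CCDC93 (0.980), GGNBP2 (0.978) and SNTB2 (0.977), and SMG1 most like SLC25A13 (0.980), BRWD3 (0.976) and OSBPL3 (0.972). SMG8 was most like FGFR1OP2 (0.973), CCNT1 (0.967) and CGRRF1 (0.952). No member was among the nearest 3 of another. Between members r was highest for SMG1 with SMG6 (0.885) and lowest for UPF2 with UPF3A (-0.63). For SMG1 with SMG9 r was 0.862, and for SMG8 with SMG9 it was -0.41.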

How the data were processed

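Per the labels' protocols, total RNA was extracted on columns from DLD-1 cells, poly(A) RNA was enriched and libraries were made with a directional kit. Per the submitters' processing notes, the authors used cutadapt 1.14, STAR 2.7.5 and featureCounts 2.0.0 and named the human build GRCh38 beside the fly build BDGP6. The deposited values are whole-number counts per gene, not normalized. The strand setting, annotation release and use of the fly rows are not given in the sources used here. Lengths per gene were deposited beside the counts. Positions of genes were read from GENCODE 29, whose IDs matched 58420 of 60666 human rows.

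From these counts, human genes passing filterByExpr (20791) were scaled by TMM and fitted with 6 group means over 12 libraries (6 residual degrees of freedom) by edgeR 4.0.16 in R 4.3.3, with its quasi-likelihood test, Benjamini-Hochberg adjustment over all genes tested and a threshold of 0.05. Each SE was obtained by dividing a gene's log2 fold change by the root of its F statistic. The step was tested on simulated data. Alternatives were DESeq2 1.42.0 size factors, fly totals as library sizes, no filter, DESeq2's Wald test, a block on replicate number, a fit of 1 line and leaving out each library. Scalings and left-out 6 h libraries for the pathway lists were added after seeing the data. Chi-square per degree of freedom between libraries of a group was 34.1 to 63.1, so none were copies.

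The members, lists and tests were chosen with earlier results of these data known. Named genes are all 9 members, up to 4 genes per list and direction with the smallest p at 6 h among those that passed, and the 3 genes most like each called member (mean log2 CPM of at least 1, prior count 2). Genes named as not passing, DCP1B in PAF1-AID cells and DDIT3 at 2 h were chosen after their values were seen. Some of what the rule names is not reported here.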

Additional observations from a re-analysis of the deposited data

Results flagged for a closer look

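Among the 9 genes, 2 responded differently in the lines at 6 h by the test of the difference itself. The log2 fold change in SPT6-AID cells minus that in PAF1-AID cells was -0.92 for UPF2 and -1.12 for SMG8. The values of each library stand in the report. Over the 17 alternatives tried for each, the difference ran from -1.07 to -0.76 for UPF2, with an adjusted p of 0.000439 to 0.256, and from -1.23 to -0.95 for SMG8, with an adjusted p of 0.000105 to 0.150.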

How the results depend on the processing

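No called change of a member changed sign in any setting. Of 1422 member values recomputed under the alternatives, 1335 kept their side of the threshold, 41 gained the call and 46 lost it. The number of members past the threshold moved as follows. For 2 h against 0 h in SPT6-AID cells it was 0, and 1 by DESeq2's Wald test. At 6 h against 0 h in SPT6-AID cells it was 4, 7 when scaled by fly totals (32.7% of all genes tested passed), 7 with no filter on low counts (14.9%), 5 by DESeq2's Wald test (26.2%), and 4 to 7 when 1 library was left out. At 6 h against 0 h in PAF1-AID cells it was 2, and 1 to 2 when 1 library was left out. For 6 h against 2 h in SPT6-AID cells it was 4, 1 with the line fitted alone, and 1 to 7 when 1 library was left out. For 6 h against 2 h in PAF1-AID cells it was 1, 0 when scaled by fly totals, 2 with no filter, 2 by DESeq2's Wald test, and 0 to 2 when 1 library was left out. For the difference of the lines at 6 h it was 2, 1 with DESeq2's size factors, 0 when scaled by fly totals, 3 with no filter (SMG6 was added), and 0 to 2 when 1 library was left out. At 6 h against 0 h in PAF1-AID cells the count stayed at 2 when scaled by fly totals, but SMG8 lost its call and SMG1 gained one. There 15.2% of all genes tested passed. By DESeq2's Wald test 2.45% of all genes tested passed at 2 h in SPT6-AID cells. For 6 h against 2 h, 9.52% passed with SPT6-AID fitted alone, and 0% in PAF1-AID cells when scaled by fly totals. That PAF1-AID share was 1.71% with no filter and 4.24% by DESeq2's Wald test. For the difference at 6 h, 3.12% passed with DESeq2's size factors, 0.077% with fly totals and 3.43% with no filter. The cause of these shifts was not tested, and where a library was left out the lone one was assumed to vary like the others. With the replicate number as a block, the count of members for SPT6-AID was 1 (2 h) and 8 (6 h), that for PAF1-AID was 1 (2 h) and 5 (6 h), and it was 7 and 4 for 6 h against 2 h in the 2 lines, and 6 for the difference at 6 h. Under the block 51.4% of all genes tested passed at 6 h against 0 h in SPT6-AID and 38.3% in PAF1-AID cells, and 7.76% and 6.98% at 2 h. For 6 h against 2 h the shares were 40.7% and 20.1%, and for the difference at 6 h the share was 21.7%. The members gained at 6 h against 0 h were UPF1, UPF3B, SMG8 and SMG5 in SPT6-AID cells and UPF3B, SMG1 and SMG6 in PAF1-AID cells, and those gained at 2 h were SMG8 and SMG9. The labels give only 2 numbers a line and do not say what they mark, and libraries of the same number deviated together (r of 0.57 to 0.66 in SPT6-AID and 0.49 to 0.53 in PAF1-AID cells), a hint from the data and not the design. A line alone was not fitted for comparisons between lines, nor a block for those at 0 h, which share no number. The precision is limited by the number of libraries, 2 a group.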
